A study of Mus musculus with 12 samples.

Results

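Counts of 10 chromosome 17 genes that take their names from, or act in, the mouse t complex were followed across F1 testes. The testes came from groups in which virus was used to overexpress or inhibit the long non-coding RNA lncRNA8276. The genes were Tcp10a, Tcp10b, Tcp10c, Tcp11, Tcp1, Tcte1, Tcte3, Tagap, Tiam2 and Fgd2, 10 of the 20788 genes in the deposited table, and all 10 were among the 16395 genes with enough counts to test. They were picked by symbol because Tcp10a and Tagap were lower in both modified groups than in the control of each. Their values in those 2 comparisons chose the genes and are therefore a description: where the text says which of them passed the threshold there, that supports nothing. In the GENCODE M21 annotation of GRCm38 the 10 genes lay on chromosome 17 between positions 3326573 and 45542680, a span of 42.2 Mb.

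The t complex is the part of proximal chromosome 17 in which variant chromosomes, the t haplotypes, suppress recombination and are passed by heterozygous males to most of their offspring. Genes known as distorters, among them Tagap1, Fgd2 and Tiam2, act in developing sperm and impair motility. A responder kinase of the Smok family protects the sperm that carry it. Several other genes of the region were first cloned as testis transcripts, and their products serve sperm formation, the sperm tail or protein folding. Whether these mice carried a t haplotype is not given in the labels.

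The tissue was testis of F1 mice of the strain labelled IRC mouse, and total RNA was sequenced. The sample titles do not say what F1 stands for, or whether these testes or those of a parent received the virus. The labels name the groups 8276OV, 8276KD, 5NC and 3NC, with 3 libraries in each. They are called overexpression, knockdown, 5NC control and 3NC control here. 5NC was set against overexpression and 3NC against knockdown, after the order in which the study lists them. The sources used here do not give the age of the mice, the vector and its promoter, the cells reached by the virus or the link between libraries and animals. The p-values therefore cover only the variation among these libraries, part of which may be technical. No check of lncRNA8276 itself was made.

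Library totals ran from 13485479 to 15771655 estimated counts, and the lowest 3 belonged to overexpression 2, 5NC control 3 and 5NC control 2. Summed markers of spermatocytes lay between 4987 and 6211 CPM (counts scaled to library size) in all 12 libraries, and those of Sertoli cells between 735 and 1010.0 CPM, so the defining markers of testis were present. 3NC control 2 stood apart: its median correlation with the other libraries was 0.958, against 0.983 to 0.990 for the rest, across genes on the log2 scale. Its 14 leukocyte markers summed to 561 CPM, against 44.8 to 87.0 CPM in the other 11 libraries. In bulk testis, fewer cells of a type and less RNA per cell cannot be told apart.

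Levels per kilobase, which allow genes to be compared, spread widely. By the authors' FPKM, averaged over the 12 libraries, Tcte3 stood at 1471 and Tcp11 at 1072. Tcp1 followed with 841 FPKM. Tcp10c (284 FPKM), Tcp10b (198 FPKM) and Tcp10a (138 FPKM) came next in that order. Tcte1 reached 68.3 FPKM. Tagap and the distorter genes were the lowest: Tagap at 5.37 FPKM, Fgd2 at 3.64 FPKM and Tiam2 at 1.33 FPKM. Tcte3 and Tcp11 overlapped in range (299 to 2310 against 767 to 1326 FPKM), and so did Tagap and Fgd2 (2.93 to 8.68 against 2.33 to 4.91 FPKM).

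**Figure D1:**
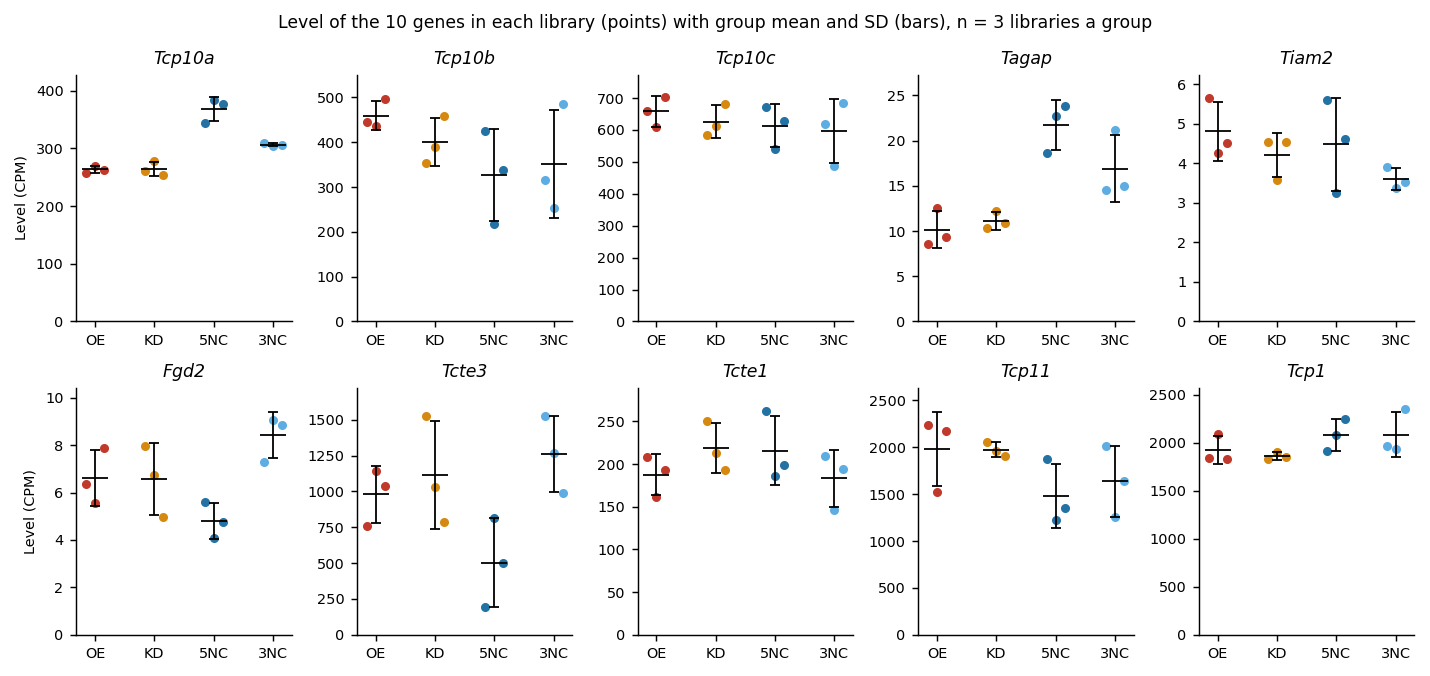
Level of each of the 10 genes in CPM (vertical axes, from 0) in the 12 libraries. Points are libraries, horizontal bars are group means and vertical bars are SD over n = 3 libraries; OE is overexpression, KD is knockdown, and 5NC and 3NC are the controls. The 6 modified libraries lie below the 6 control libraries for Tcp10a (254 to 278 against 304 to 384 CPM) and Tagap (8.59 to 12.5 against 14.6 to 23.8 CPM), while the other 8 genes overlap.

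Tcp10a, a testis-expressed gene at chr17:7324646-7345974 on the plus strand, had 257, 269 and 263 CPM in overexpression testes, against 344, 384 and 377 CPM in 5NC controls. In knockdown testes it had 261, 278 and 254 CPM, against 309, 304 and 305 CPM in 3NC controls. All 6 modified libraries lay below all 6 controls, as did 80 of the 16395 tested genes (0.488%). The log2 difference was -0.48 ± 0.07 for overexpression and -0.21 ± 0.07 for knockdown (SE). Summed markers of spermatocytes were 5862 to 5960 CPM in overexpression and 5675 to 5992 CPM in the 5NC control, and 5594 to 5650 CPM in knockdown and 4987 to 6211 CPM in the 3NC control. Gene by gene, 7 of the 10 spermatocyte markers were below zero in overexpression, with a median of -0.18 against -0.01 over all tested genes. Of the 10, 1 (Spo11) passed, beside 0.476% of all tested genes. In knockdown 7 of 10 were below zero with a median of -0.06 against -0.03, and between the 5NC and 3NC controls 9 of 10 were above zero with a median of 0.12 against -0.02. The part of spermatocytes in the Tcp10a level was not tested. Tcp10a varied little within groups: its within-group coefficient of variation was 3.86%, at percentile 1.68 of 9860 genes of at least 10 CPM, whose median was 10.8%. Choosing a gene by its difference between these groups favours a small spread within them, so this too is only a description.

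For Tcp10b and Tcp10c, the relatives of Tcp10a, modified and control libraries overlapped. Tcp10b had 444, 437 and 496 CPM in overexpression testes, against 424, 218 and 337 CPM in 5NC controls. Knockdown testes held 354, 390.1 and 458 CPM of it, against 315, 252 and 486 CPM in 3NC controls. In this gene 2 control libraries, 5NC control 2 and 3NC control 2, were the lowest of the 12. For Tcp10c the range was 583 to 705 CPM over the modified libraries and 488 to 683 CPM over the controls. The log2 difference between overexpression and the 5NC control was 0.49 ± 0.26 for Tcp10b and 0.10 ± 0.13 for Tcp10c (SE), opposite in sign to that of Tcp10a.

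The 3 Tcp10 genes are shown by sequence because their transcripts share much of their sequence. Of the 50-base windows in the longest Tcp10a transcript, 61.3% also occurred in a Tcp10b transcript and 34.9% in a Tcp10c transcript, and the estimated counts of Tcp10a carried fractions in all 12 libraries. RefSeq's promoter windows (GRCm38.p6, 250 bases before to 50 after the start) were 99.3% identical between Tcp10a and either relative over the 286 aligned bases. The 250 bases before the start are printed here, 5′ to 3′ on the plus strand, with TATAAA, the core of the TATA box, in capitals where it occurred on either strand. Tcp10a is chr17:7324410-7324659, Tcp10b is chr17:13060861-13061110 and Tcp10c is chr17:13354322-13354571.
Tcp10a: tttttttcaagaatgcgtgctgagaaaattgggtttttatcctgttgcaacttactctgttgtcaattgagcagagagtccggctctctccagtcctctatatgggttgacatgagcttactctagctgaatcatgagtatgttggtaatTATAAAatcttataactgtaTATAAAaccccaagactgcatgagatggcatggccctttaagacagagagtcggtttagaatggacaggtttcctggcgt
Tcp10b: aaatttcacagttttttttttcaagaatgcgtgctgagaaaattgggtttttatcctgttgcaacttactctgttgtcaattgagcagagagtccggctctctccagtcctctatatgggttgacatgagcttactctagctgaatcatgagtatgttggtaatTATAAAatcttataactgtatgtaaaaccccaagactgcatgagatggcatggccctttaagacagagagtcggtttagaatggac
Tcp10c: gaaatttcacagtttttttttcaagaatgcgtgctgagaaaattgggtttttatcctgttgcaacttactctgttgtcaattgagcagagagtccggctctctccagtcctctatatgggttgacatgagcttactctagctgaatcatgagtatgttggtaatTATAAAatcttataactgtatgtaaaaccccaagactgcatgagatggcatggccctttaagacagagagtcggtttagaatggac
Before the start the aligned bases differed at 1 position, A172G, with Tcp10a's base first and positions counted from 1 at the 5′ end of its window. It fell inside the second of 2 TATAAA matches in Tcp10a, so Tcp10b and Tcp10c held 1 match each. The matches began 100 and 80 bases before the start in Tcp10a, and 86 bases before it in both Tcp10b and Tcp10c. Whether any of them acts as a TATA box was not tested. Among all 32851 RefSeq promoter windows, 12.4% held TATAAA on either strand in those 250 bases and 2.1% held it at least 2 times.

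Summed over the 3 genes in each library, the Tcp10 levels of modified and control testes overlapped. The sum was 1362, 1316 and 1464 CPM in overexpression testes, against 1440.3, 1141 and 1343 CPM in 5NC controls. It was 1199, 1279.9 and 1394 CPM in knockdown testes, against 1244, 1044 and 1475 CPM in 3NC controls. Tcp10a's share of that sum was 18.0% to 21.8% over the 6 modified libraries and 20.7% to 33.6% over the 6 controls, with 3NC control 3 the lowest control. Fitted as 1 row among all genes, the sum differed by 0.08 ± 0.13 on the log2 scale in overexpression and by 0.04 ± 0.13 in knockdown (SE), each relative to its control. How the reads of these genes were divided was not tested, and the sum was formed after the values were seen.

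**Figure D2:**
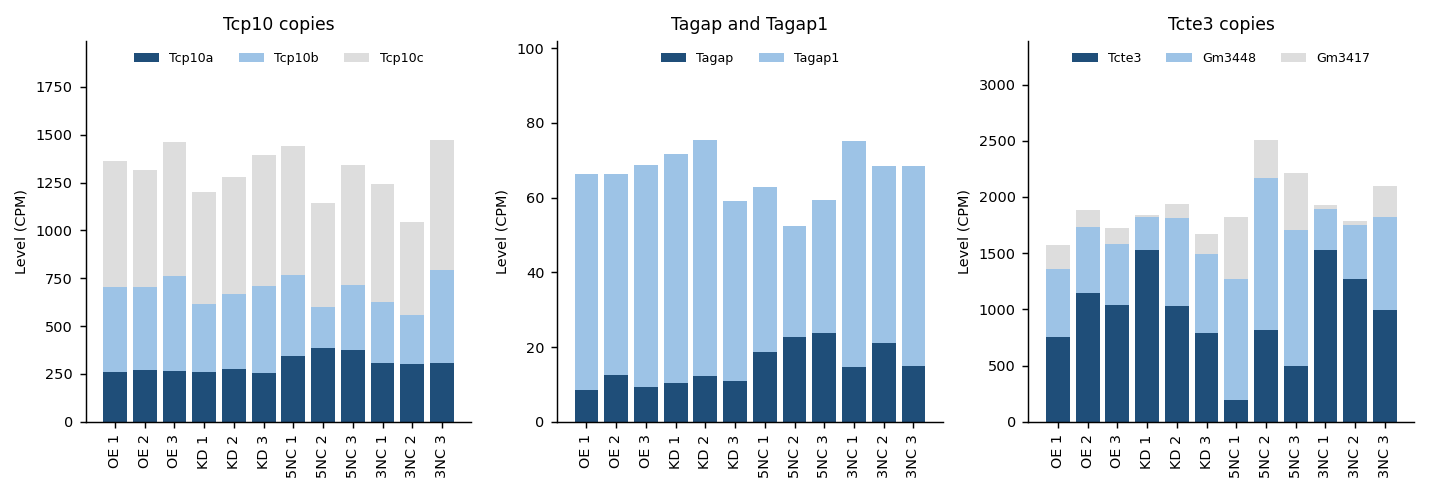
Level in CPM (vertical axes, from 0) of genes that share transcript sequence, stacked in each of the 12 libraries. OE is overexpression, KD is knockdown, and 5NC and 3NC are the controls. Tcp10a's share of its stack is 18.0% to 21.8% in the modified libraries and 20.7% to 33.6% in the controls. Tagap's is 12.96% to 18.9% in the modified libraries and 19.4% to 43.3% in the controls. Tcte3's runs from 10.7% in 5NC control 1 to 83.0% in knockdown 1.

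Tagap, a GTPase-activating protein known from activated T cells, lies at chr17:7926000-7934897 on the plus strand. It had 8.59, 12.5 and 9.38 CPM in overexpression testes, against 18.6, 22.7 and 23.8 CPM in 5NC controls. In knockdown testes it had 10.3, 12.2 and 10.9 CPM, against 14.6, 21.2 and 14.95 CPM in 3NC controls. As for Tcp10a, the 6 modified libraries lay below the 6 controls. The log2 difference was -1.09 ± 0.18 for overexpression and -0.60 ± 0.18 for knockdown (SE).

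Leukocyte markers were set beside the Tagap level. 3NC control 2, with 561 CPM of leukocyte markers, had the highest Tagap level of its group, 21.2 CPM, and Cd8a, which marks cytotoxic T cells, had 411 counts there against 1 to 8 in the other 11 libraries. None of the 14 markers was at 0 in that library. Without it, the log2 difference of Tagap between knockdown and the 3NC control was -0.40, against -0.60 with it. Over the 3 overexpression libraries the 14 markers summed to 44.8 to 56.3 CPM, against 46.8 to 87.0 CPM over the 5NC controls. Without Cd52, a marker that varied widely, the other 13 summed to 44.2 to 46.9 CPM in overexpression and 42.8 to 46.1 CPM in the 5NC control. They summed to 40.4 to 49.6 CPM in knockdown and 40.0 to 506 CPM in the 3NC control. Cd52 reached 43.5 CPM in knockdown 1 and 44.1 CPM in 5NC control 2, where the 6 epididymis markers summed to 370.3 and 304 CPM, against 1.75 to 127 CPM in the other 10 libraries. Its highest value, 55.2 CPM, was in 3NC control 2, where the epididymis markers summed to 79.5 CPM. In 5NC control 3, where Tagap stood at 23.8 CPM, 2 of the 14 leukocyte markers (Cd3e and Cd3g) were at 0, while Ptprc had 37 counts, Cd4 had 20 and Cd8a had 3. The part of T cells in the Tagap values was not tested in any library.

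**Figure D3:**
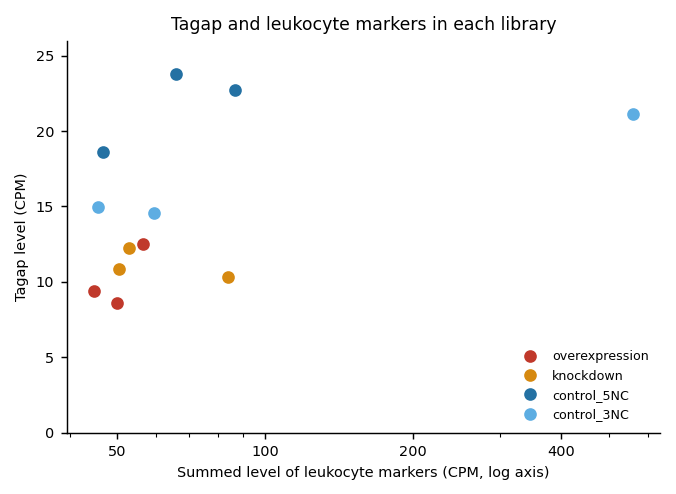
Tagap level (vertical axis, CPM, from 0) against the summed level of 14 leukocyte markers (horizontal axis, CPM, log scale) in each of the 12 libraries, coloured by group. 3NC control 2 lies far to the right at 561 CPM of markers, and the other 11 libraries lie between 44.8 and 87.0 CPM with Tagap from 8.59 to 23.8 CPM.

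Tagap1, a t-complex distorter that is a neighbouring copy of Tagap at chr17:6955011-6961156 on the minus strand, had a positive log2 difference in overexpression, 0.64 ± 0.15 (SE). It had 57.7, 53.9 and 59.4 CPM in overexpression testes, against 44.1, 29.8 and 35.5 CPM in 5NC controls. In knockdown testes it had 61.3, 63.3 and 48.3 CPM, against 60.5, 47.4 and 53.5 CPM in 3NC controls. The overexpression libraries lay above all 3 of the 5NC controls (22% of all tested genes had no overlap of these groups in either direction), and the knockdown libraries overlapped the 3NC controls. Tagap and Tagap1 summed to 66.3 to 68.8 CPM in overexpression and 52.5 to 62.7 CPM in the 5NC control, and to 59.2 to 75.6 CPM in knockdown and 68.5 to 75.0 CPM in the 3NC control. Tagap's share of that sum was 12.96% to 18.9% in overexpression and 29.7% to 43.3% in the 5NC control, and 14.4% to 18.4% in knockdown and 19.4% to 30.9% in the 3NC control.

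Of the 50-base windows in the longest Tagap transcript, 47.6% also occurred in a Tagap1 transcript, and both genes had fractional counts in all 12 libraries. An antisense transcript, E430024P14Rik, shares 716 exon bases with Tagap, and without a stated strand setting the reads of both cannot be told apart. Fitted as 1 row, Tagap plus Tagap1 differed by 0.21 ± 0.10 in overexpression and by -0.04 ± 0.10 in knockdown (log2, SE), each relative to its control; the sign of the first is opposite to that of Tagap alone. The promoter windows are shown to set beside this shared sequence: 59% of 227 aligned bases were identical. Both are printed 5′ to 3′ on the strand of the gene, with GGGCGG (the GC box, found on either strand, as CCGCCC on the other) and TATAAA in capitals. Tagap is chr17:7925750-7925999 and Tagap1 is chr17:6961157-6961406.
Tagap: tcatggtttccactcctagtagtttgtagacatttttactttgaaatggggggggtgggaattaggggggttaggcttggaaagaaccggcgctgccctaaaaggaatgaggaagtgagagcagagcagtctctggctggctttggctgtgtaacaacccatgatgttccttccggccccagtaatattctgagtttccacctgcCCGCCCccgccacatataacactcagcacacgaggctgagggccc
Tagap1: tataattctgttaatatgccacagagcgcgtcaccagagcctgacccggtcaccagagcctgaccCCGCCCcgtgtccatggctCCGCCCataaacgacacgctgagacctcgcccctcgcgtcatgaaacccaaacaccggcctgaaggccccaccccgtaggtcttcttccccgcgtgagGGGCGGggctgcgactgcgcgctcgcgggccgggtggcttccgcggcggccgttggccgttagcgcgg
The Tagap window held 1 GC box and that of Tagap1 held 3, and neither held TATAAA. The GC box occurred on either strand in 32.7% of all 32851 windows and at least 2 times in 16.7%.

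The distorter genes Fgd2 and Tiam2 had few counts, which limits their precision. Fgd2, an exchange factor for Cdc42 that shared no 50-base window with another gene and had whole counts throughout, is not open to sharing of reads with a copy. It had 97, 76 and 119 counts in overexpression testes (6.37, 5.58 and 7.89 CPM), against 89, 58 and 66 counts in 5NC controls (5.59, 4.09 and 4.75 CPM). In knockdown testes it had 125, 104 and 77 counts (7.98, 6.74 and 4.99 CPM), against 110, 145 and 131 counts in 3NC controls (7.30, 9.08 and 8.86 CPM). The 2 control groups did not overlap, and the means of both modified groups (6.62 CPM in overexpression and 6.57 CPM in knockdown) lay between theirs. The log2 difference was 0.46 ± 0.21 in overexpression and -0.36 ± 0.20 in knockdown (SE). Tiam2, an exchange factor for Rac, had 46 to 89 counts a library, and its range was 3.57 to 5.65 CPM over the modified libraries and 3.25 to 5.59 CPM over the controls.

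Tcte3, also known as Tctex2, a dynein light chain of the sperm tail, had the widest spread of the 10 genes. It had 757, 1144 and 1040.3 CPM in overexpression testes, against 196, 814 and 499.97 CPM in 5NC controls. In knockdown testes it had 1528, 1032 and 788 CPM, against 1524, 1269.8 and 989.6 CPM in 3NC controls. The highest library held 7.81 times the lowest, and the within-group coefficient of variation of 38.0% was at percentile 98.2 of the 9860 genes. Nearly all of this transcript exists elsewhere: 95.8% of its 50-base windows also occurred in Gm3448 and 81.1% in Gm3417, and 99.9% in some other gene.

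The RefSeq promoter windows of Tcte3, Gm3448 and Gm3417 were identical at all 300 bases, so 1 sequence is printed for the 3 genes, 5′ to 3′ on their minus strand and with the GC box in capitals. It is chr17:15041560-15041809 for Tcte3, chr17:15010185-15010434 for Gm3448 and chr17:14978813-14979062 for Gm3417.
Tcte3: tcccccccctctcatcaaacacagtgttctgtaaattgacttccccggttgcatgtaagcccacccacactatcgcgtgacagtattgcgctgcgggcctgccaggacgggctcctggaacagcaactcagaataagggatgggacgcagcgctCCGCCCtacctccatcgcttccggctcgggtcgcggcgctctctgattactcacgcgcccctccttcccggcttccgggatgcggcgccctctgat
Together the 3 genes summed to 1574, 1884 and 1723 CPM in overexpression testes, against 1826, 2511 and 2209 CPM in 5NC controls. They summed to 1842, 1934 and 1666 CPM in knockdown testes, against 1925, 1783 and 2099 CPM in 3NC controls. Both pairs of groups overlapped. The share of Tcte3 in the sum ran from 10.7% in 5NC control 1 to 83.0% in knockdown 1. Fitted as 1 row, the sum differed by -0.34 ± 0.12 in overexpression, where Tcte3 alone differed by 0.96 ± 0.45, and by -0.09 ± 0.12 in knockdown, where Tcte3 alone differed by -0.18 ± 0.44 (log2, SE).

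Tcp11, a testis gene needed for normal sperm function, had whole counts throughout. It had 2241, 1525 and 2177 CPM in overexpression testes, against 1870.1, 1222 and 1347 CPM in 5NC controls. In knockdown testes it had 2060.3, 1962 and 1905 CPM, against 2017, 1259.7 and 1639.9 CPM in 3NC controls. The 4 lowest values belonged to the 3 libraries with the lowest totals and to 3NC control 2, the library with raised leukocyte markers; the part of either in the Tcp11 level was not tested. The log2 difference was 0.42 ± 0.20 in overexpression and 0.27 ± 0.20 in knockdown (SE). Markers of round spermatids were above zero in overexpression for 10 of 10 genes with none past the threshold, beside 0.476% of all tested genes. They summed to 1631 to 2030 CPM in overexpression and 1387 to 1555 CPM in the 5NC control. In knockdown they summed to 1836 to 1900.2 CPM, against 1413 to 2022 CPM in the 3NC control. Their part in the Tcp11 level was not tested.

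Tcp1 and Tcte1, a folding and a sperm-tail gene, follow. Tcp1, a subunit of the cytosolic chaperonin that folds actin and tubulin, ranged from 1832 to 2092 CPM in overexpression and 1917 to 2251 CPM in the 5NC control, and from 1832 to 1906 CPM in knockdown and 1939 to 2354 CPM in the 3NC control. The knockdown libraries all lay below the 3NC controls, where 13% of all tested genes had no overlap in either direction, and the log2 difference was -0.16 ± 0.10 (SE). Tcte1, a subunit of the nexin-dynein regulatory complex of motile cilia, ranged from 161 to 208 CPM in overexpression and 186 to 262 CPM in the 5NC control, and from 193 to 250.1 CPM in knockdown and 146 to 209.8 CPM in the 3NC control. Its reads overlap those of Tmem151b, which lies on the other strand and shares 22.4% of its windows.

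Counted over the 10 genes, 2 (Tcp10a and Tagap) passed an adjusted p of 0.05 for overexpression against the 5NC control, beside 0.476% of all 16395 genes, and 0 passed for knockdown against the 3NC control, beside 0.0183%. These comparisons chose the genes, and nothing is read from the counts. The count of 2 in overexpression was 2 without overexpression 2, 1 without 5NC control 1, and 0 without any 1 of overexpression 1, overexpression 3, 5NC control 2 or 5NC control 3. In overexpression 6 of the 10 log2 differences were above zero and 4 below, with a median of 0.10 against -0.01 over all tested genes. In knockdown 5 were above and 5 below, with a median of -0.05 against -0.03.

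**Figure D4:**
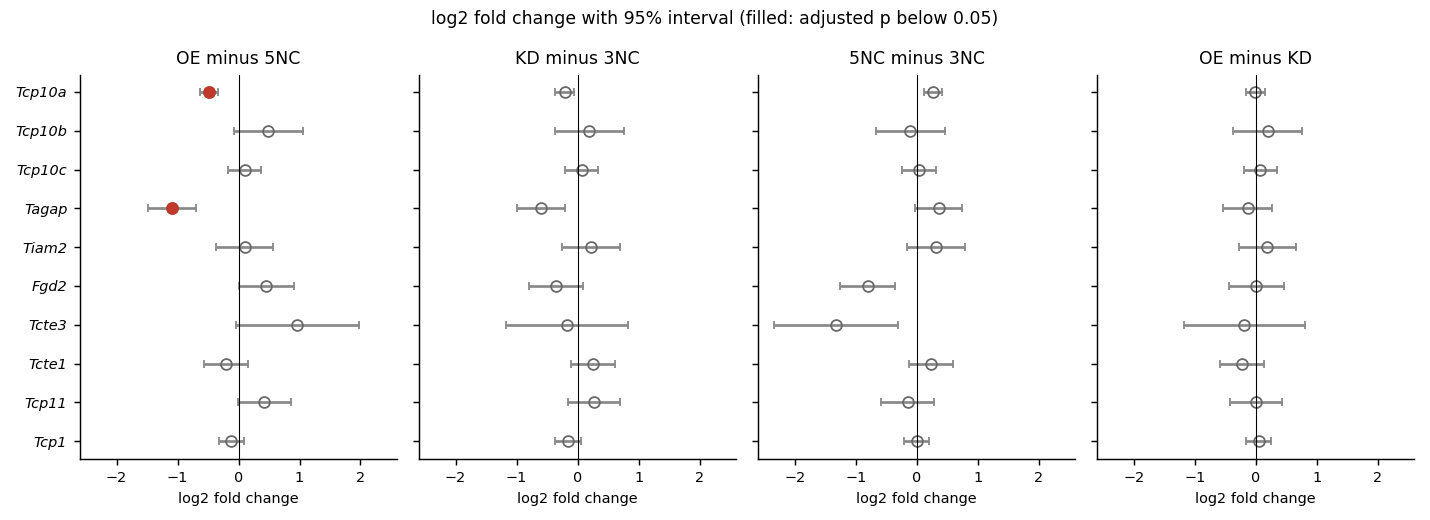
log2 fold change (horizontal axes) of the 10 genes in 4 comparisons, each panel naming the group on top first; OE is overexpression, KD is knockdown, and 5NC and 3NC are the controls. Circles are estimates of edgeR's fit over 12 libraries, lines are 95% intervals, and filled circles mark an adjusted p below 0.05 over all 16395 genes. Only Tcp10a (-0.48) and Tagap (-1.09) in OE minus 5NC are filled, in a comparison that was used to choose the genes.

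The 2 controls were also set against each other, in a comparison that uses libraries the choice of genes rested on. Tcp10a averaged 368 ± 20.97 CPM in the 5NC control and 306 ± 2.75 CPM in the 3NC control (SD, n = 3 each), a log2 difference of 0.27 ± 0.07 (SE) with an adjusted p of 0.173 by edgeR's quasi-likelihood test over all genes. Fgd2 averaged 4.81 ± 0.752 CPM in the 5NC control and 8.41 ± 0.971 CPM in the 3NC control, a log2 difference of -0.80 ± 0.21 with an adjusted p of 0.166 by edgeR. For Tcte3 the log2 difference was -1.33 ± 0.45 with an adjusted p of 0.296 by edgeR. These 3 genes were the ones of the 10 whose control groups did not overlap, as was the case for 13.2% of all tested genes.

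None of the 10 genes passed between the controls by edgeR, beside 0.244% of all genes, and 3 of the 10 had an unadjusted p under 0.05, beside 12.9%. DESeq2 on the same libraries called 2 of them, Tcp10a with an adjusted p of 0.00433 and Fgd2 with an adjusted p of 0.0478. It also called more of all tested genes than edgeR did in this comparison, with the counts given in the closing section, so the 0.244% does not apply to it. Among the copies, Tagap1 had a log2 difference of -0.56 ± 0.15 (SE) with an adjusted p of 0.175 by edgeR, and Tagap had 0.36 ± 0.18 with an adjusted p of 0.418. Round-spermatid markers were below zero in this comparison for 10 of 10 genes, with a median of -0.32 against -0.02 over all genes and none past the threshold. Their summed level was 1387 to 1555 CPM in the 5NC control and 1413 to 2022 CPM in the 3NC control, and its part in the values of the 10 genes was not tested.

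Overexpression and knockdown testes, whose labels name opposite changes of lncRNA8276, differed in none of these genes by the test. The log2 difference between them was -0.01 for Tcp10a, with a 95% interval from -0.16 to 0.15, and -0.14 for Tagap, with an interval from -0.54 to 0.26. Tcp10a and Tagap were chosen for being lower in both modified groups, which favours similar levels in these groups. Their values in this comparison are therefore only a description. Over the 10 genes the differences ran from -0.22 to 0.20 and each adjusted p was 1 by edgeR's quasi-likelihood test. No gene of the 16395 passed in this comparison (0%), 343 had an unadjusted p under 0.05 (2.09%, and 0 of the 10 genes), and DESeq2 called 12. The intervals were widest for Tcte3, from -1.19 to 0.81. None of the 10 genes had overexpression libraries that stood wholly apart from the knockdown libraries, against 10.6% of all genes.

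The difference between the 2 effects, overexpression minus 5NC control less knockdown minus 3NC control, was -0.27 ± 0.10 for Tcp10a and -0.50 ± 0.26 for Tagap (log2, SE), with adjusted p of 0.655 and 0.749 by edgeR. It was largest among the genes with whole counts for Fgd2, at 0.81 ± 0.29 with an adjusted p of 0.638. None of the 10 passed, beside 0.0183% of all genes, and 2 of the 10 had an unadjusted p under 0.05, beside 6.73%. These values use the libraries that chose the genes.

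By the likeness of levels over the 12 libraries (Pearson's r of log2(CPM + 1) against 15371 genes of at least 1 CPM, a description over libraries that share groups), Tcp10a was closest to Gm46608 (r = 0.962), Spo11 (r = 0.961), Sec22a (r = 0.960), Tmem202 (r = 0.956) and Rrm1 (r = 0.952). Spo11, which makes the DNA breaks of meiotic recombination, averaged 33.0 CPM in overexpression and 62.0 CPM in the 5NC control, and 35.7 CPM in knockdown and 44.9 CPM in the 3NC control. Rrm1, the large subunit of ribonucleotide reductase, averaged 126 CPM in overexpression and 158 CPM in the 5NC control, and 126 CPM in knockdown and 138 CPM in the 3NC control. Tagap was closest to Lpin2 (r = 0.979), Stk4 (r = 0.963), Chka (r = 0.944), Yipf5 (r = 0.940) and Rbm48 (r = 0.939). Lpin2, a phosphatidate phosphatase also on chromosome 17, averaged 35.8 CPM in overexpression and 47.8 CPM in the 5NC control, and 38.5 CPM in knockdown and 44.0 CPM in the 3NC control.

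The genes around Tcp10a and Tagap were examined next. Tcp10a starts 0.601 Mb before Tagap, and none of the 9 tested genes within 3 places of either passed in overexpression or knockdown against its control. Over all tested genes the shares were 0.476% and 0.0183%. Of the 3 tested genes between the pair, Ttll2, a tubulin ligase-like gene that starts 26.2 kb after the start of Tcp10a, had log2 differences of 0.09 ± 0.14 in overexpression and -0.10 ± 0.14 in knockdown (SE). Unc93a2 had 0.27 ± 0.18 in overexpression and 0.30 ± 0.18 in knockdown. Fndc1, which averaged 1.12 CPM over the 12 libraries, had -0.28 ± 0.43 in overexpression and -0.96 ± 0.44 in knockdown. Rsph3a, a radial-spoke gene that starts 19.6 kb after the start of Tagap, had 0.18 ± 0.12 in overexpression and 0.22 ± 0.12 in knockdown, with fractional counts in all 12 libraries. Its relative Rsph3b, named after its values were seen, starts 0.42 Mb before Tcp10a. It averaged 58.4 CPM in overexpression and 119 CPM in the 5NC control, and 24.9 CPM in knockdown and 54.9 CPM in the 3NC control, also with fractional counts in all 12. Its log2 differences of -1.03 ± 0.44 in overexpression and -1.14 ± 0.46 in knockdown (SE) did not pass, beside -1.09 and -0.60 for Tagap.

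Over the span of the 10 genes 490 genes were tested, and 4 passed in overexpression, 2 of them Tcp10a and Tagap. Without the 10 genes, 2 of 480 passed (0.417%), beside 0.421% of 15218 genes on other chromosomes. These were Cyp21a1, a steroid 21-hydroxylase gene with a near-identical pseudogene nearby, at 1.41 ± 0.18 (log2, SE; adjusted p 0.0089 by edgeR) and Pim1, a serine/threonine kinase, at 0.54 ± 0.10 (adjusted p 0.0497). None of the 490 passed in the other 4 comparisons, beside 0% to 0.244% of all tested genes.

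**Figure D5:**
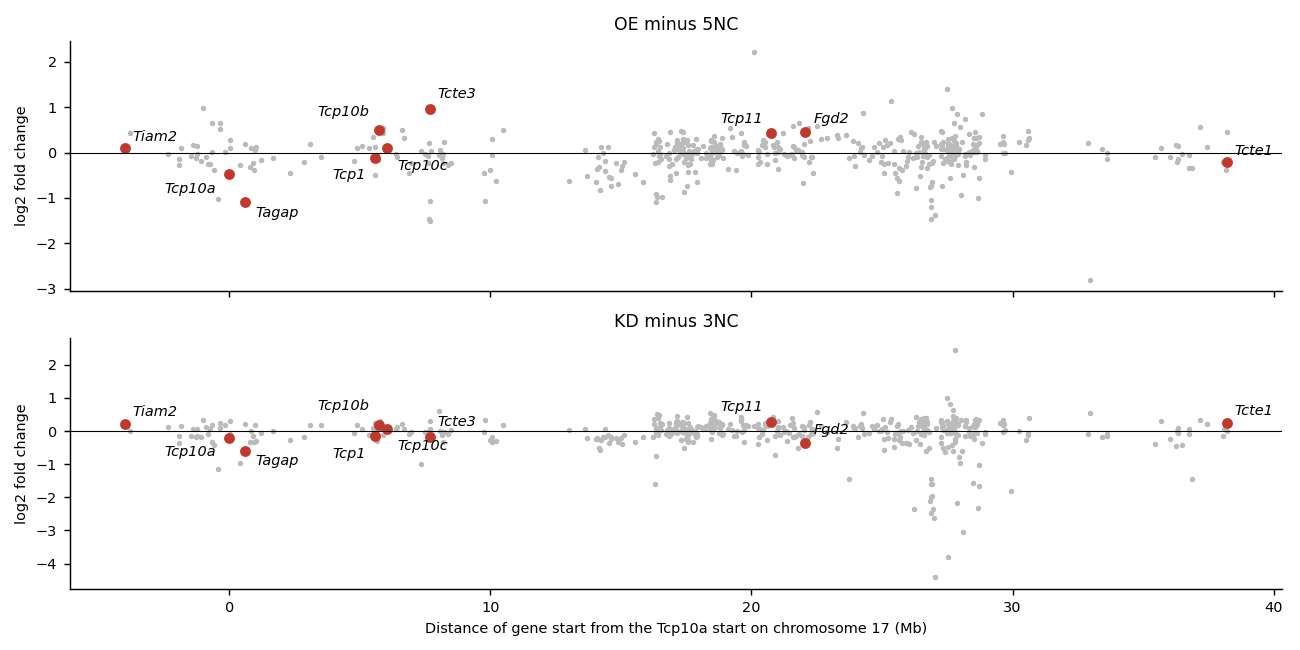
log2 fold change (vertical axes) of the 490 tested genes in the span of the 10 genes, against the distance of each gene's start from the start of Tcp10a in Mb (horizontal axis). Large named points are the 10 genes and small points the others; upper panel overexpression minus 5NC control (OE minus 5NC), lower panel knockdown minus 3NC control (KD minus 3NC). Tcp10a and Tagap lie below zero in both panels, and the genes around them lie on both sides of zero, such as Rsph3b (-1.03 and -1.14) and Tagap1 (0.64 and 0.10).

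Few genes of the wider pathways passed the test. Of 8 tested distorter and responder genes, which include Tagap, Tagap1 and the Smok kinases, none passed in overexpression against the 5NC control other than Tagap, whose value there chose the genes, beside 0.476% of all tested genes. Between the controls 0 of the 8 passed, beside 0.244%. Smok2a, a kinase of the responder family with shared counts, averaged 16.7 CPM in overexpression and 11.5 CPM in the 5NC control, and 16.3 CPM in knockdown and 17.6 CPM in the 3NC control.

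For the chaperonin that contains Tcp1, most subunits had small values below zero and none passed. In overexpression 8 of 9 subunit genes were below zero, with a median of -0.09 against -0.01 over all genes, and in knockdown 8 of 9 with a median of -0.12 against -0.03. Cct7, the highest after Tcp1, averaged 644 CPM in overexpression and 661 CPM in the 5NC control, and 649 CPM in knockdown and 642 CPM in the 3NC control. Of 14 dynein light-chain genes, 10 genes of the nexin-dynein regulatory complex and 4 of the Tcp11 family, 0 passed in any comparison. Ccdc65, a partner of Tcte1 in that complex, averaged 246 CPM in overexpression and 239 CPM in the 5NC control, and 262 CPM in knockdown and 249 CPM in the 3NC control. Of 36 further genes of the region, 1 (Pim1) passed in overexpression, beside 0.476% of all tested genes, and 0 in the other comparisons. Of the marker lists of spermatogonia, elongating spermatids, Leydig, endothelial and myoid cells and epididymis, 0 genes passed in any comparison. Over all tested genes 0% to 0.476% passed in these comparisons, so a count of 0 in such short lists says little.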

How the data were processed

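RNA-seq of 12 mouse testis libraries was analysed from 1 deposited table. Estimated counts per gene were made by the authors, of which 88.2% were whole (tolerance 1e-09), and FPKM values were deposited beside them by the authors; the unit FPKM was inferred from the values. The build is mm10, per the submitters' processing notes, and no source used here names the aligner, counter or strand setting. A further 18 columns of 9 other samples were not used. Counts were rounded and tested with edgeR 4.0.16 (quasi-likelihood, TMM, R 4.3.3, limma 3.58.1) in 1 model of 4 groups of 3 libraries, with 8 residual degrees of freedom. filterByExpr (minimum count 10) kept 16395 of 20788 genes, and those left out held 0.0708% of counts. P-values were adjusted by Benjamini-Hochberg over all genes tested, at a threshold of 0.05. Library totals ran from 13485479 to 15771655, so a gene of few counts is measured less precisely.

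The members and gene lists were chosen with earlier results of these data known; 1 of the lists is not reported here. Genes named are the 10 members and their near-identical copies, list genes past the threshold, otherwise the highest expressed of a list, the 5 genes most like Tcp10a and Tagap, and up to 3 tested neighbours on each side. Alternatives were DESeq2 1.42.0, other scaling and filter settings, only the groups compared, a replicate block and leaving out each library; summing copies and a term for low totals were added after the data were seen. The fit was tested on simulated data. Sequences are RefSeq's (GRCm38.p6), with promoters for 9 of the 10 members, and coordinates come from GENCODE M21.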

Additional observations from a re-analysis of the deposited data

How the results depend on the processing

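The direction and the side of the threshold stayed for most values, nearly all of which had not passed by edgeR. The values that had passed, Tcp10a and Tagap in overexpression, mostly did not hold when 1 library was left out. Tcp10a then passed in 2 of 6 fits and Tagap in 1 of 6. The cause of the changes was not tested. DESeq2 moved the genes past the threshold to 742 (78 by edgeR) for overexpression against the 5NC control, 23 (3) for knockdown against the 3NC control, 305 (40) for 5NC against 3NC, 12 (0) for overexpression against knockdown and 53 (3) for the difference of the 2 effects; it called 2 members between the controls. Fitting only the groups compared gave 9 between the controls and 0 for knockdown. The term for the 3 libraries of low total gave 6 between the controls. Whether the replicate numbers pair the libraries cannot be told: 8 of 18 same-number pairs correlated above 0.1. The median correlation was 0.069 for same-number pairs and -0.046 for different-number pairs. A replicate block gave 269 in overexpression and 6 for the difference, and turned Tcp11 in overexpression against knockdown to -0.022. Leaving out 1 library gave 5 to 217 genes in overexpression, with 0 to 2 members, 1 to 9 in knockdown, 7 to 126 between the controls, 0 to 2 between overexpression and knockdown and 3 to 12 for the difference. Summing copies measures another quantity (log2). It kept the single gene's sign in knockdown for Tagap (-0.037) and Tcte3 (-0.092), and between the controls for Tcp10a (0.060). The sign also stayed in overexpression against knockdown for Tagap (-0.038) and Tcte3 (-0.074). Summing turned the sign in the values that follow. In overexpression it gave 0.21 for Tagap, 0.077 for Tcp10a and -0.34 for Tcte3, in knockdown 0.043 for Tcp10a, between the controls -0.28 for Tagap and 0.17 for Tcte3, in overexpression against knockdown 0.094 for Tcp10a, and for the difference 0.24 for Tagap, 0.034 for Tcp10a and -0.25 for Tcte3. The low-total term gave, between the controls, 0.11 for Tcp10b and 0.19 for Tcp11, for the difference -0.026 for both Tcp10c and Tcp11, in overexpression -0.014 for Tiam2 and in overexpression against knockdown -0.018 for Tcp1. With no filter Tcp1 was 0.0023 between the controls. Ranges that crossed zero when 1 library was left out were, for overexpression, -0.087 to 0.29 for Tiam2. Such ranges were, for knockdown, -0.00052 to 0.50 for Tcp10b, -0.059 to 0.18 for Tcp10c, -0.47 to 0.022 for Tcte3. They were, between the controls, -0.061 to 0.095 for Tcp1, -0.34 to 0.20 for Tcp10b, -0.088 to 0.15 for Tcp10c, -0.35 to 0.030 for Tcp11. Such ranges were, between overexpression and knockdown, -0.16 to 0.17 for Fgd2, -0.020 to 0.075 for Tcp1, -0.037 to 0.028 for Tcp10a, -0.098 to 0.16 for Tcp11, -0.39 to 0.11 for Tcte3. They were, for the difference, -0.053 to 0.10 for Tcp1, -0.010 to 0.53 for Tcp10b, -0.077 to 0.16 for Tcp10c, -0.029 to 0.35 for Tcp11, -0.31 to 0.064 for Tiam2.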
